A study of Homo sapiens with 12 samples.

Results

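The inflammatory secretory genes followed here are CXCL1, CXCL2, CXCL3, CXCL8, CCL20, IL6, LIF, IL1A, IL1B and PTGS2, 10 of the 60669 gene IDs in the count table. They were chosen by symbol with earlier results of these data known, as were the other gene lists below. Shares of all genes set beside them are therefore a description. All 10 were paired with an Ensembl ID and passed the filter on low counts. Their IDs in the table are ENSG00000163739.5 (CXCL1), ENSG00000081041.9 (CXCL2), ENSG00000163734.4 (CXCL3), ENSG00000169429.11 (CXCL8), ENSG00000115009.13 (CCL20), ENSG00000136244.12 (IL6), ENSG00000128342.5 (LIF), ENSG00000115008.6 (IL1A), ENSG00000125538.12 (IL1B) and ENSG00000073756.12 (PTGS2). Expression was measured by RNA-seq in 6 established human cell lines, which the study describes as ovarian cancer lines. They form 3 isogenic families, each a sensitive line and a partner resistant to chemotherapy: HeyA8 with HeyA8-MDR, SK-OV-3 with SK-OV-3-TR, and OV2008 with C13. Each line received quinacrine (QC), an antimalarial drug under study as an anticancer agent, at 8 µM for 6 h, or vehicle, and each of the 12 libraries is the only one of its line and treatment. Lines therefore served as replicates, 3 per group. The p-values below set a change against the spread between lines, which the fits pool in part with the spread of all other genes. A gene's own lines leave only 4 residual degrees of freedom in the QC fit by resistance group and 2 in the vehicle fit. The QC fits treat the 2 isogenic lines of a family as separate replicates. Levels are CPM, read counts relative to library size, after trimmed mean of M values (TMM) scaling, and a single-line change is the QC level set against the vehicle level of the same line.

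CXCL1, CXCL2, CXCL3 and CXCL8 encode chemokines that attract neutrophils through CXCR1 and CXCR2, and CCL20 attracts cells that carry CCR6. IL6 and LIF signal through a shared receptor chain, gp130, to STAT3, IL1A and IL1B activate NF-kB through the IL-1 receptor, and PTGS2 (COX-2) makes the prostaglandin precursor. In tumour cells these genes are commonly switched on together by NF-kB, AP-1 and C/EBP factors, and IL-1 itself induces the others.

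The bases upstream of the transcription start of the 4 CXC chemokines are printed because all 4 hold the same kappa B letters and yet did not always change together within a line. They come from RefSeq on GRCh38.p14 and run 5′ to 3′ on the gene's strand, each covering the 150 bases before the start. Capitals mark GGAATTTCC (a kappa B sequence), TGANTCA (an AP-1 sequence) or TATAAA, searched on both strands. The matches did not overlap.
CXCL1, plus strand, chr4:73869243-73869392: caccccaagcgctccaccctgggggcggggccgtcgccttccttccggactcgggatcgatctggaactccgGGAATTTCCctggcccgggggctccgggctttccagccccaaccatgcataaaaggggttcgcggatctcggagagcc
CXCL2, minus strand, chr4:74099196-74099345: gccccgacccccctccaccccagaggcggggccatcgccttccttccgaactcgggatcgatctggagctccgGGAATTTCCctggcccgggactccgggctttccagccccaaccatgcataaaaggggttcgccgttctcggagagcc
CXCL3, minus strand, chr4:74038690-74038839: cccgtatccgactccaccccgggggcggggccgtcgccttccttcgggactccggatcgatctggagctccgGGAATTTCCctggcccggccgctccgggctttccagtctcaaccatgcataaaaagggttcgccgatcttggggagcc
CXCL8, plus strand, chr4:73740419-73740568: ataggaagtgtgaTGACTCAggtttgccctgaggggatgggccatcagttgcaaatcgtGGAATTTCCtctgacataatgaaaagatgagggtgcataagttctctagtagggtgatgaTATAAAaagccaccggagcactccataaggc

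Counted in bases from the start, GGAATTTCC began at -78 in CXCL1 and CXCL3, at -77 in CXCL2 and at -91 in CXCL8. The same 9 letters stood in 0.461% of the 35116 promoter windows of 300 bases in the table. TGANTCA, held by 7.71% of windows, began at -137 in CXCL8 and was also in both windows of IL1A. TATAAA, held by 11.5% of windows, began at -31 in CXCL8, -29 in CCL20 and -32 in PTGS2, and at -239 in IL1A. Without gaps, the 150 bases of CXCL1 matched those of CXCL3 at 86% of positions and those of CXCL8 at 29.3%. These matches describe the letters in the windows and not binding. LIF had no window in the table.

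Reads counted on genes totalled 17782556 to 30585059 per library. The simple keratins KRT8 and KRT18 were at 211 and 161 CPM or more in every library. The HeyA8 family was mixed in other epithelial markers. KRT7 was high there, at 415 CPM in HeyA8 vehicle and 553 CPM in HeyA8-MDR vehicle. Close to 0 in the same 2 libraries were EPCAM (2.92 and 0.0519 CPM), CDH1 (0.222 and 0) and KRT19 (0.355 and 0.104). The endothelial marker CDH5 was at 89.3 and 148 CPM in these 2 libraries. Leukocyte markers were close to absent: 11 of them summed to 0.454 to 8.55 CPM per library, and MS4A1 and TYROBP were at 0 throughout. PAX8, a marker of ovarian carcinoma, was at 325 to 480 CPM in the 4 vehicle libraries of the HeyA8 and SK-OV-3 families but at 7.56 CPM in OV2008 and 19.6 CPM in C13, and WT1 was below 5 CPM in all 12 libraries. The HeyA8 QC library lay partway towards the partner line. Taken were 56 genes at least 8-fold higher in HeyA8-MDR vehicle than in HeyA8 vehicle (100 counts or more in the higher of the pair). Over these its median position was 36.1% of the distance towards HeyA8-MDR, and over the 113 such lower genes 52.4%. The genes were picked on the same vehicle libraries that set both ends of this distance. In the other 5 QC libraries the same measure was at most 30.9%, in HeyA8-MDR over the same 56 genes. Only the 52.4% was thus well above them. On the log2 scale the same medians were 68.2% and 23.4%, beside at most 16.5% in the other QC libraries. Fits that use this library are therefore also given without HeyA8 for the 10 genes, and for other genes where that moved the value by over 1.5 times or ended a call at an unadjusted p under 0.05. What part this library has in them was not tested.

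Without QC, the lines differed in which of these genes they expressed most. Per kilobase of exon, CXCL1 and IL1B were the most abundant of the 10 in HeyA8, at 348 and 298 CPM per kb. In HeyA8-MDR IL1B led at 73.1 CPM per kb, in SK-OV-3 IL1A led at 33.8 and in SK-OV-3-TR LIF led at 18.1. IL1B and IL1A led in OV2008, at 59.8 and 38.9 CPM per kb, and in C13 their order was turned, with IL1A at 84.6 and IL1B at 50.8 CPM per kb. The family of a line was tested on the 6 vehicle libraries with edgeR's quasi-likelihood test. CXCL1 (adjusted p = 0.0204) and IL1B (adjusted p = 0.0172) differed between families, 2 of 10 genes against 15.2% of all genes tested. The study lists DMEM as the medium of the HeyA8 pair and RPMI for the SK-OV-3 and OV2008 pairs. Medium and the HeyA8 family therefore cannot be told apart in this test. At an unadjusted p under 0.05 PTGS2 joined them (adjusted p = 0.0942), 3 of 10 against 37.2% of all genes. By DESeq2 the genes past the adjusted threshold were CXCL1 and PTGS2, without IL1B. Each family holds a sensitive and a resistant line, not repeats of 1 line, and the number past it was 1 without the HeyA8 or the OV2008 library (IL1B in both cases), 2 without C13, 3 without SK-OV-3-TR and 4 without SK-OV-3 or HeyA8-MDR.

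**Figure D1:**
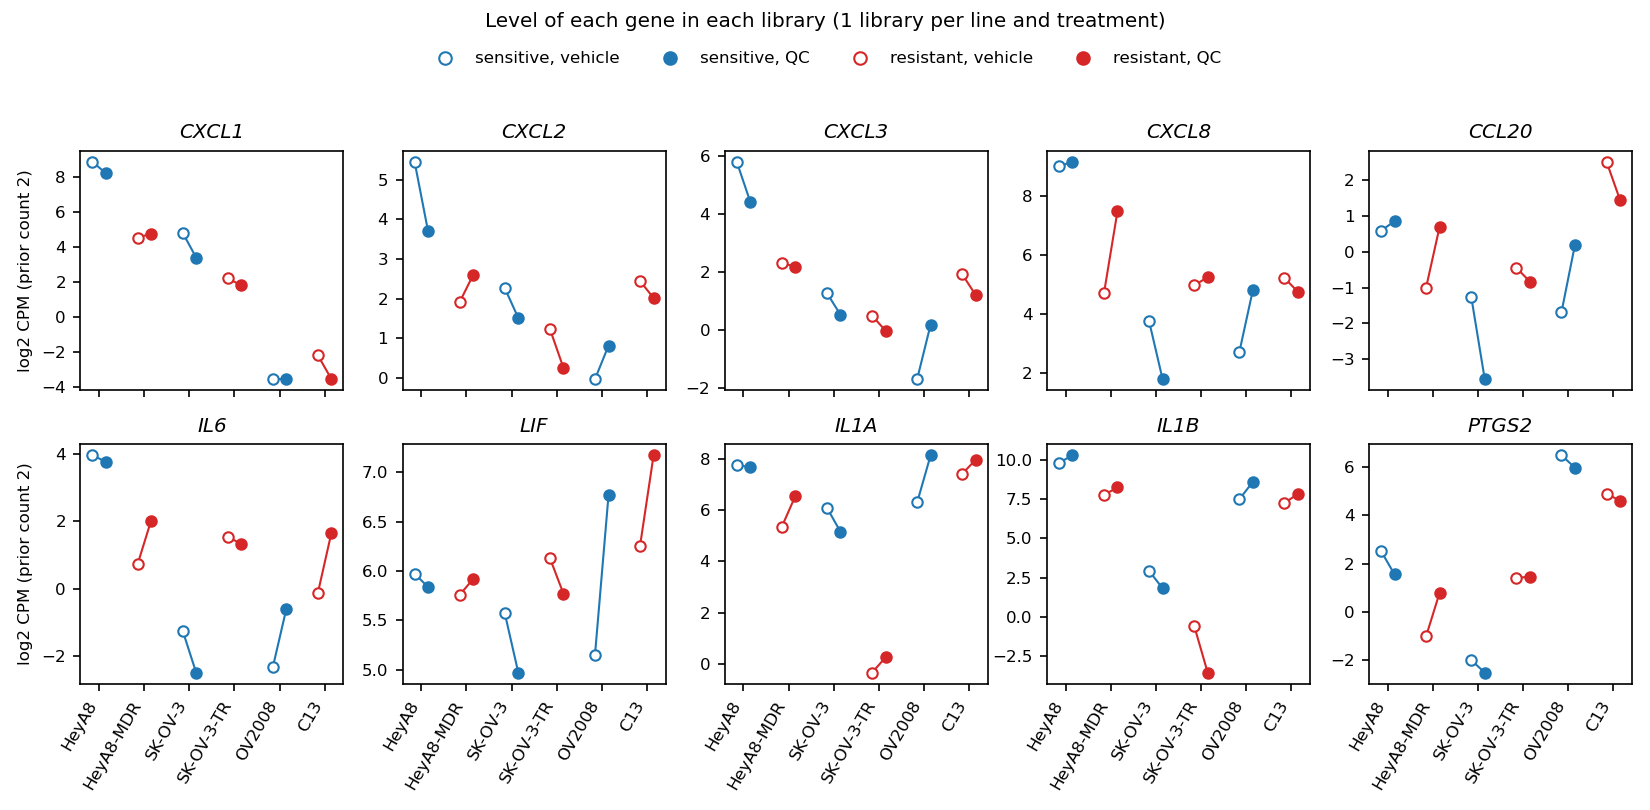
Level of each of the 10 genes in each library, as log2 CPM with a prior count of 2 (y axis, a separate scale per gene), for the 6 lines (x axis). Open circles are vehicle and filled circles QC, joined within a line, blue for sensitive and red for resistant lines; CXCL8 runs up from 25.9 to 179 CPM in HeyA8-MDR and down from 13.4 to 3.36 CPM in SK-OV-3.

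Levels were also compared between resistant and sensitive partners without drug. No gene of the 10 passed an adjusted p under 0.05, where 0% of all 18720 genes tested did so by edgeR's quasi-likelihood test and 47 did so by DESeq2, none of them among the 10. CXCL1 was lower in resistant lines by a fitted log2 of -2.86 (SE 0.99, unadjusted p = 0.0277, adjusted p = 0.994) and IL1B by -1.90 (SE 0.66, unadjusted p = 0.0273, adjusted p = 0.994), which makes 2 of 10 at an unadjusted p under 0.05 against 3.71% of all genes. The CXCL1 call at an unadjusted p under 0.05 needed the HeyA8 family: without it the fitted value was -1.16 (unadjusted p = 0.462, edgeR's fit across all genes). The SK-OV-3 pair went the same way, at 28.3 CPM in SK-OV-3 and 4.55 CPM in SK-OV-3-TR. In the OV2008 pair CXCL1 was barely measured, with 0 counts in OV2008 and 4 in C13. For IL1B the unadjusted p was 0.0829 without the HeyA8 family and 0.0655 without the SK-OV-3 family. Without a filter on low counts both passed the adjusted threshold (adjusted p = 0.00131 for CXCL1 and 0.00521 for IL1B, edgeR). In the remaining 8 genes the fitted difference lay between -2.47 for IL1A and 1.16 for CCL20.

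QC moved these genes in different directions in different lines. In OV2008, 8 of the 9 genes that could be measured were higher with QC and 7 of them over 2-fold, and the exception was PTGS2. Of all genes in that line 9.86% were over 2-fold higher and 8.12% over 2-fold lower. Among the 7, IL6 began at 2 counts with vehicle, and CXCL3 and CCL20 at 4 each. In HeyA8-MDR 9 of 10 were higher and 5 over 2-fold, against 7.12% of all genes (9.49% over 2-fold lower, none of the 10). Of these 5, CCL20 and PTGS2 began at 8 counts each with vehicle and IL6 at 30. In SK-OV-3 all 10 were lower and 5 over 2-fold, against 4.12% of all genes (4.15% over 2-fold higher, none of the 10). Among the 5, IL6 went from 8 to 2 counts and CCL20 from 8 to 0. PTGS2, lower but not over 2-fold, held only 4 and 2 counts. The 95% interval for counting error lay below 1 for 8 of the 10, a number without a share of all genes to set beside it. Of all genes, 49.5% were higher with QC in OV2008, 46.0% in HeyA8-MDR and 52.7% in SK-OV-3. The median change of the measured genes was 1.74 on the log2 scale in OV2008, 0.94 in HeyA8-MDR and -1.02 in SK-OV-3, where the median of all genes was 0 in each.

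The other 3 lines were mixed. In HeyA8 3 genes were higher and 7 lower, with 2 over 2-fold lower against 6.95% of all genes and 0 over 2-fold higher against 10.2%. In SK-OV-3-TR 3 were higher and 7 lower, with 1 over 2-fold lower against 5.73% and 0 over 2-fold higher against 3.64%. In C13 4 were higher and 6 lower, with 1 over 2-fold higher against 8.24% and 2 over 2-fold lower against 3.16%. Of these 2, CXCL1 held only 4 counts with vehicle and 0 with QC. Scaled to RPLP0 in place of TMM, the C13 split became 7 higher and 3 lower. None of the 10 genes changed in the same direction in all 6 lines, which 8.97% of all genes did. Each line has 1 library per treatment, so these single-line changes have no replicate check, and intervals given below cover counting error only. The summed leukocyte markers were also higher with QC in 5 lines. These were OV2008 (5.15 to 8.55 CPM), C13 (3.83 to 6.37), HeyA8-MDR (1.45 to 2.49), SK-OV-3-TR (0.561 to 0.848) and HeyA8 (1.91 to 2.05). The sum was lower in SK-OV-3 (0.837 to 0.454). The markers did not move together. ITGAM was higher in each of the 5 lines, as in C13 (0.732 to 2.34 CPM). S100A9 was higher in OV2008 (3.58 to 5.20) and C13 (2.20 to 3.39). In C13 CD14 (0.466 to 0.151) and CD68 (0.233 to 0.0377) were lower. MS4A1 and TYROBP were at 0, PTPRC reached at most 9 counts and CD3E at most 2. What part these markers have in the changes of the 10 genes was not tested.

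**Figure D2:**
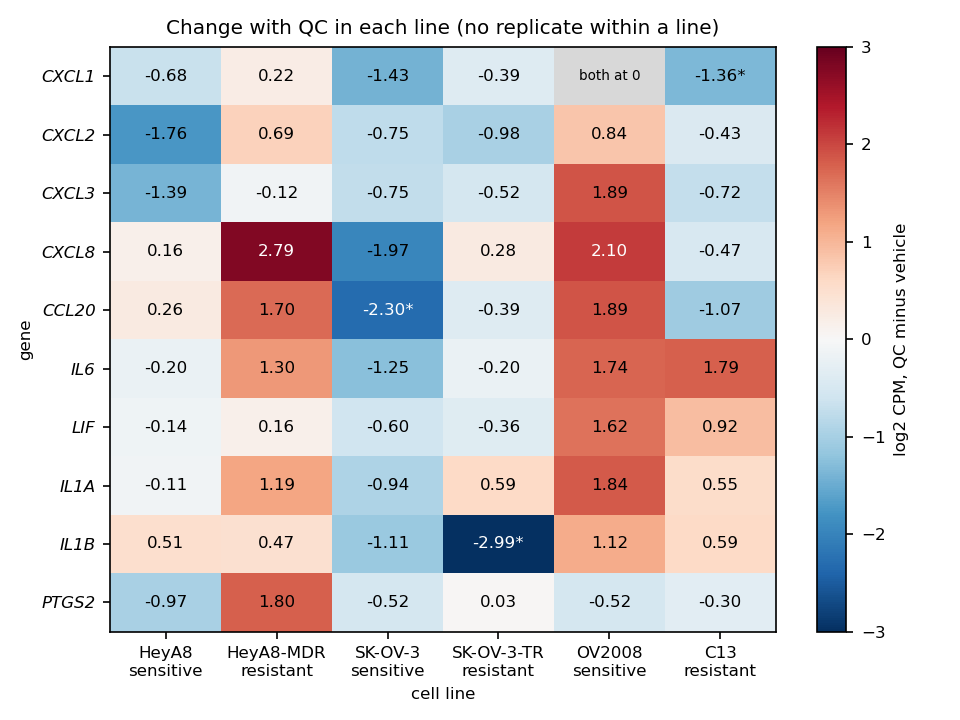
Change of each gene (y axis) with QC in each line (x axis), as log2 CPM with QC minus vehicle on a colour scale from -3 (blue) to 3 (red). An asterisk marks a cell where 1 library had 0 counts, whose value depends on the prior count of 2; SK-OV-3 is blue in all 10 genes and OV2008 is red in 8 of 9, while CXCL2, CXCL8 and PTGS2 in C13 turn slightly positive when scaled to RPLP0.

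CXCL1 was the only gene of the 10 to pass an unadjusted threshold for QC. HeyA8 held 475 CPM with vehicle and 297 with QC, and HeyA8-MDR 23.2 and 27.1. SK-OV-3 held 28.3 and 10.5 CPM, and SK-OV-3-TR 4.55 and 3.45. OV2008 was at 0 in both libraries and C13 at 0.133 CPM with vehicle and 0 with QC. The sensitive and resistant groups overlapped under both treatments, and HeyA8 was far above every other line. SK-OV-3 showed the lower QC level most plainly, with 677 counts in vehicle and 231 with QC, a ratio of 0.37 (95% interval 0.318 to 0.431). C13 held 4 counts with vehicle and 0 with QC, a ratio whose 95% interval of 0 to 1.71 includes no change.

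In the fit with a term for each cell line, CXCL1 in sensitive lines had a log2 change of -1.04 (SE 0.32, unadjusted p = 0.00781, adjusted p = 0.621, edgeR), 1 of 10 genes against 6.59% of all genes. Over all 6 lines it was -0.61 (SE 0.25, unadjusted p = 0.0314, adjusted p = 0.282), 1 of 10 against 15.2%. The resistant minus sensitive difference was 0.88 (SE 0.46, adjusted p = 1). The sensitive value rests on HeyA8 and SK-OV-3 alone. It was -1.42 (unadjusted p = 0.0256) without HeyA8 and -0.69 (unadjusted p = 0.131) without SK-OV-3, and the value over all lines was -0.61 (unadjusted p = 0.103) and -0.35 (unadjusted p = 0.179). Without a filter on low counts the adjusted p was 0.0371 in sensitive lines and 0.0437 over all lines.

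CXCL2 and CXCL3 are close relatives of CXCL1, and 13.4% of the 50-base windows of CXCL2, 6.01% of those of CXCL3 and 4.57% of those of CXCL1 occur in another of the 3 genes, so a part of their counts cannot be assigned with certainty. In HeyA8, CXCL2 was at 43.7 CPM with vehicle and 12.9 with QC, and in HeyA8-MDR at 3.69 and 5.98. SK-OV-3 held 4.73 and 2.77 CPM, and SK-OV-3-TR 2.27 and 1.11. OV2008 held 0.896 and 1.68 CPM, and C13 5.36 and 3.96. HeyA8 was highest in both treatments. CXCL2 was lower with QC in 4 lines, although C13 turned slightly higher when scaled to RPLP0, with the largest change in HeyA8 (ratio 0.294, 95% interval 0.26 to 0.333), and higher in HeyA8-MDR and OV2008.

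CXCL3 went from 56.4 to 21.5 CPM between vehicle and QC in HeyA8 and from 4.88 to 4.50 in HeyA8-MDR. It went from 2.34 to 1.36 CPM in SK-OV-3 and from 1.33 to 0.901 in SK-OV-3-TR. The OV2008 family had 0.224 and 1.06 CPM in OV2008 and 3.73 and 2.22 in C13. CXCL3 was lower in 5 lines, and in OV2008 4 counts became 24 (ratio 4.72, 95% interval 1.62 to 18.7). Across the 12 libraries the log2 levels of CXCL2 and CXCL3 had a Pearson correlation of 0.97, given as a description since libraries of a line and family share their origin. Over all lines the fitted changes were -0.47 (SE 0.32) for CXCL2 and -0.49 (SE 0.32) for CXCL3, with adjusted p-values of 0.508 and 0.484 (edgeR). Without HeyA8 they were -0.16 (adjusted p = 0.898) and -0.20 (adjusted p = 0.888).

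CXCL8, which encodes interleukin 8, changed apart from the CXCL1 group in HeyA8. Its level was 513 CPM with vehicle and 574 with QC in HeyA8, and 25.9 and 179 in HeyA8-MDR. The SK-OV-3 pair parted, with 13.4 and 3.36 CPM in SK-OV-3 beside 31.2 and 37.8 in SK-OV-3-TR. So did the OV2008 pair, with 6.39 and 27.7 CPM in OV2008 beside 37.2 and 26.8 in C13. HeyA8 stood well above every other line without drug, and HeyA8-MDR moved closest to it with QC. The HeyA8-MDR ratio was 6.92 (95% interval 6.29 to 7.62), larger than in 99.8% of all genes in that line, and the OV2008 ratio was 4.34 (3.55 to 5.35). In SK-OV-3 the ratio was 0.251 (0.192 to 0.324), and in C13 it was 0.72 (0.654 to 0.792) under TMM but slightly above 1 when scaled to RPLP0. With changes this far apart, the fitted log2 change over all lines was 0.49 with an SE of 0.48 (adjusted p = 0.674, edgeR), and without HeyA8 it was 0.57.

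In HeyA8 the 4 CXC chemokines parted. CXCL1, CXCL2 and CXCL3 had ratios of 0.626, 0.294 and 0.382, whereas CXCL8 had a ratio of 1.12 (95% interval 1.09 to 1.15). In CPM, CXCL1 in the HeyA8 QC library lay 39.3% of the way from HeyA8 vehicle to HeyA8-MDR vehicle, CXCL2 77.1% and CXCL3 67.7%, which is the side on which that library stood over the strongly differing genes. PTGS2 lay 53.7% of this way, IL6 14.5% and IL1A 8.77%. LIF lay 65.4% of it, although its HeyA8 and HeyA8-MDR vehicle levels were close, at 62.8 and 54.0 CPM. CXCL8, CCL20 and IL1B went the other way, since QC left them further from HeyA8-MDR than vehicle did. Whether the CXCL1, CXCL2, CXCL3 and PTGS2 differences in HeyA8 come with the placement of this library was not tested.

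CCL20 was sparse in most lines. Vehicle and QC libraries held 32 and 47 counts in HeyA8 and 8 and 26 in HeyA8-MDR. They held 8 and 0 in SK-OV-3 and 22 and 9 in SK-OV-3-TR, and 4 and 24 in OV2008 and 169 and 70 in C13. C13 was highest in both treatments at 5.63 and 2.64 CPM, and its ratio of 0.469 (95% interval 0.35 to 0.623) was below 1. OV2008 (ratio 4.72) and HeyA8-MDR (ratio 3.71) were higher with QC, and SK-OV-3 was at least 2.46-fold lower against a floor of 3 counts. The fitted change over all lines was 0.09 with an SE of 0.57, and 0.04 without HeyA8.

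IL6, the best known gp130 cytokine, was at 15.6 CPM with vehicle and 13.6 with QC in HeyA8 and at 1.56 and 3.97 in HeyA8-MDR. SK-OV-3 had 0.335 and 0.0908 CPM, and SK-OV-3-TR 2.81 and 2.44. OV2008 had 0.112 and 0.573 CPM, and C13 0.832 and 3.09. SK-OV-3 and OV2008 held only 2 to 13 counts, while C13 went from 25 to 82 (ratio 3.71, 95% interval 2.35 to 6.07) and HeyA8-MDR from 30 to 67 (ratio 2.55, 1.63 to 4.06). In the resistant lines the fitted log2 change was 0.99 (SE 0.53, unadjusted p = 0.0864, adjusted p = 0.832, edgeR), and it was 0.53 without C13 and 1.63 without SK-OV-3-TR. Over all lines it was 0.59 (SE 0.40, adjusted p = 0.511), and 0.83 without HeyA8. SK-OV-3-TR, at a ratio of 0.869 (0.597 to 1.25), did not share the higher level.

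LIF was the most evenly expressed of the 10, and its family test gave an unadjusted p of 0.893 (edgeR). It was at 62.8 CPM with vehicle and 57.1 with QC in HeyA8, and at 54.0 and 60.5 in HeyA8-MDR. The SK-OV-3 family had 47.5 and 31.2 CPM in SK-OV-3 and 70.0 and 54.6 in SK-OV-3-TR. The OV2008 family had 35.4 and 109 CPM in OV2008 and 76.5 and 144 in C13. Only the OV2008 family went well above its vehicle level, with ratios of 3.08 (95% interval 2.82 to 3.36) in OV2008 and 1.89 (1.79 to 1.99) in C13. The fitted change over all lines was 0.26 (SE 0.25, adjusted p = 0.662, edgeR), and 0.34 without HeyA8.

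IL1A, the interleukin 1 form that is active as a precursor, was at 218 CPM with vehicle and 203 with QC in HeyA8 and at 40.8 and 93.4 in HeyA8-MDR. SK-OV-3 had 68.1 and 35.6 CPM, whereas SK-OV-3-TR had 0.709 and 1.11. OV2008 had 78.5 and 282 CPM, and C13 171 and 249. All 3 resistant lines were higher with QC, though SK-OV-3-TR only from 24 to 21 counts in a smaller library, a ratio of 1.57 (95% interval 0.832 to 2.94). The fitted log2 change was 0.83 in resistant lines (SE 0.42, unadjusted p = 0.0745, adjusted p = 0.823, edgeR) and 0.53 over all lines (SE 0.30, unadjusted p = 0.1, adjusted p = 0.419). In SK-OV-3 IL1A was lower (ratio 0.522, 0.479 to 0.569), and in OV2008 it was higher (ratio 3.59, 3.39 to 3.81). The value over all lines was 0.68 (adjusted p = 0.421) without HeyA8, 0.84 (adjusted p = 0.131) without SK-OV-3 and 0.23 (adjusted p = 0.808) without OV2008, and without a filter on low counts the adjusted p was 0.0366.

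IL1B, whose precursor must be cleaved before it signals, had the widest range. HeyA8 had 895 CPM with vehicle and 1271 with QC, and HeyA8-MDR 220 and 305. In the SK-OV-3 family the levels were 7.57 and 3.45 CPM in SK-OV-3 and 0.591 and 0 in SK-OV-3-TR. In the OV2008 family they were 180 and 391 CPM in OV2008 and 153 and 230 in C13. IL1B was thus higher with QC in both lines of the HeyA8 and OV2008 families, with ratios from 1.39 in HeyA8-MDR to 2.17 in OV2008. It was lower in both lines of the SK-OV-3 family, where SK-OV-3 had a ratio of 0.456 (95% interval 0.344 to 0.599) and SK-OV-3-TR went from 20 counts to 0, at least 3.71-fold lower against a floor of 3 counts. The fitted change over all lines was 0.25 (SE 0.31) by edgeR and -0.12 by DESeq2, and 0.19 by edgeR without HeyA8.

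PTGS2 was at 5.67 CPM with vehicle and 2.85 with QC in HeyA8 and at 0.416 and 1.66 in HeyA8-MDR. SK-OV-3 had 0.167 and 0.0908 CPM, and SK-OV-3-TR 2.60 and 2.65. OV2008 had 89.5 and 62.5 CPM, and C13 29.8 and 24.1. OV2008 and C13 held most of the PTGS2 RNA under both treatments. All 3 sensitive lines were lower with QC, although SK-OV-3 held only 4 and 2 counts; the ratios were 0.503 (95% interval 0.374 to 0.671) in HeyA8 and 0.698 (0.649 to 0.75) in OV2008. HeyA8-MDR went from 8 to 28 counts (ratio 3.99, 1.77 to 10.1). The fitted log2 change was -0.74 in sensitive lines (SE 0.36, unadjusted p = 0.0635, adjusted p = 0.755, edgeR) and the resistant minus sensitive difference was 1.005 (SE 0.50, adjusted p = 1). Without HeyA8 the sensitive value was -0.56 (adjusted p = 1). Over all lines the change was -0.22 (SE 0.27), turning to 0.02 when scaled to RPLP0, and it was -0.04 without HeyA8.

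None of the 10 genes passed an unadjusted p under 0.05 in resistant lines, against 6.03% of all genes, or in the difference between resistant and sensitive lines, against 1.16% of all genes. No gene in the table passed an adjusted p under 0.05 for any of the 4 QC contrasts by edgeR's quasi-likelihood test (0%), and by DESeq2 31 genes did in sensitive lines, 0 in resistant lines, 1 in the difference and 518 over all lines, with 0 of the 10 among them. On the log2 scale the 10 genes had a median fitted change of 0.08 in the sensitive group and 0.22 in the resistant group, beside 0.02 and -0.01 over all genes.

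**Figure D3:**
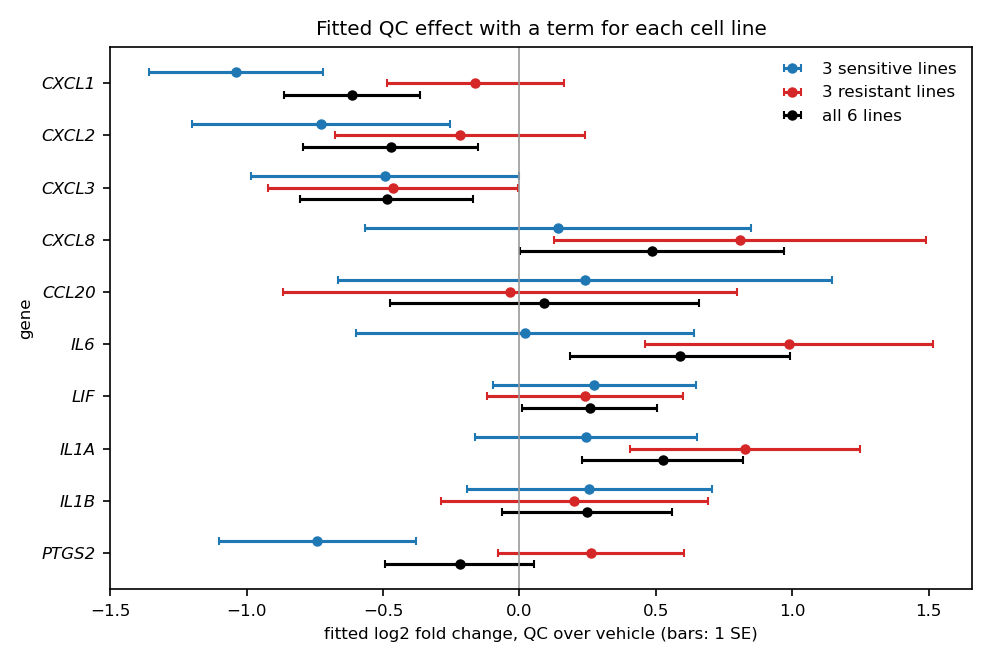
Fitted log2 fold change of QC over vehicle (x axis, bars 1 SE) for each gene (y axis) in the 3 sensitive lines (blue), the 3 resistant lines (red) and all 6 lines (black), from the model with a term for each cell line. CXCL1 in sensitive lines lies at -1.04 and IL6 in resistant lines at 0.99.

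Other genes of these pathways were read from lists, and their changes over all 6 lines are set against the 15.2% of all genes at an unadjusted p under 0.05, since none passed the adjusted threshold by edgeR. Of 26 other cytokines and chemokines 16 passed the filter, 2 were higher and 1 lower at that threshold. IL18, an IL-1 family cytokine, had a log2 change of -1.02 (SE 0.28, adjusted p = 0.169 by edgeR and 0.0277 by DESeq2) and was lower in all 6 lines; without HeyA8 its fitted value was -0.68. IL24 had a log2 change of 2.14 (SE 0.64, adjusted p = 0.18, edgeR) and of 2.18 by DESeq2, but was at 0 in some libraries. Its level went from 0.112 to 5.60 CPM in OV2008 and from 5.50 to 12.7 CPM in HeyA8. In every other line IL24 was at 0.528 CPM or less. CXCL5 and CXCL6 were at 0 in every library, and TNF reached at most 18 counts.

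Among 19 receptor genes 14 passed the filter, with 2 higher and 1 lower. LIFR and IL6ST, which encode the LIF receptor and gp130, had log2 changes of 0.65 (SE 0.18, adjusted p = 0.169 by edgeR and 0.0354 by DESeq2) and 0.54 (SE 0.19, adjusted p = 0.227, edgeR). The receptors for the chemokines were nearly absent, with at most 2 counts of CXCR1, 12 of CXCR2 and 1 of CCR6 in any library. In the JAK and STAT3 list 1 of 10 was higher and 1 lower, namely JAK2 at 0.39 (SE 0.16) and TYK2 at -0.51 (SE 0.13). The TYK2 adjusted p was 0.154 by edgeR and 0.0195 by DESeq2. Scaled to RPLP0 the TYK2 value was -0.32, no longer under an unadjusted p of 0.05.

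For IL-1 maturation and release 11 of 12 genes passed the filter, with 1 higher and 1 lower. NLRP1, an inflammasome sensor, had a log2 change of -0.45 (SE 0.12, adjusted p = 0.167 by edgeR and 0.0272 by DESeq2, but -0.27 scaled to RPLP0 and no longer under an unadjusted p of 0.05), and S100A13, a carrier for IL-1 alpha export, had one of 0.41 (SE 0.14). In the prostaglandin pathway 11 of 12 passed, with 0 higher and 3 lower. PTGS1 (COX-1) and PLA2G4A, the phospholipase that frees arachidonic acid, were at -0.59 (SE 0.24) and -0.53 (SE 0.23), and the list's median was -0.30 beside 0.00 over all genes. Scaled to RPLP0 the PTGS1 value was -0.36 and the PLA2G4A value -0.35, neither under an unadjusted p of 0.05, and without HeyA8 PLA2G4A was at -0.45 and also not under it.

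In the NF-kB list, which holds subunits, kinases and feedback inhibitors, 2 of 22 genes were higher and 0 lower, and the median was -0.01. TNFAIP3 (A20), a feedback inhibitor, had a log2 change of 0.79 (SE 0.28, adjusted p = 0.217, edgeR) and of 0.62 without HeyA8, where it was no longer under an unadjusted p of 0.05, and CHUK, a kinase of the pathway, had one of 0.42 (SE 0.14). The list of AP-1, EGR and C/EBP factors stood higher: 6 of 13 were higher and 0 lower, with a median of 0.38. ATF3 was at 1.47 (SE 0.36, adjusted p = 0.153 by edgeR and 0.00333 by DESeq2) and FOS at 1.16 (SE 0.29, adjusted p = 0.153 by edgeR and 0.0147 by DESeq2), and without HeyA8 they were at 1.18 and 1.39.

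The line in which ATF3 and FOS changed most was not always the line in which the 10 genes did. ATF3 had single-line log2 changes of 2.90 in HeyA8, 1.503 in SK-OV-3 and 2.41 in OV2008, and of 1.504 in HeyA8-MDR, 1.11 in C13 and -0.69 in SK-OV-3-TR. FOS was at 0.13 in HeyA8, 0.39 in SK-OV-3 and 2.21 in OV2008 and at 1.48, 0.59 and 1.83 in their respective resistant partners. OV2008 thus had high values in both ATF3 and the inflammatory genes, while SK-OV-3 had a higher ATF3 level beside lower levels of all 10. TNFAIP3 was lower in SK-OV-3 (-0.84) and higher in HeyA8-MDR (1.36) and OV2008 (1.61), as most of the 10 were, but it was also higher in HeyA8 (1.61). Among 12 regulators of cytokine mRNA decay 0 were higher and 1 lower: ZC3H12A (regnase-1) at -0.38 (SE 0.16), while ZFP36 (tristetraprolin) was at 0.28 (SE 0.17, adjusted p = 0.451, edgeR). ZC3H12A was at -0.29 without HeyA8 and at -0.20 scaled to RPLP0, in neither case under an unadjusted p of 0.05, whereas ZFP36 scaled to RPLP0 was at 0.47 and under it. Of the marker lists, 2 of 12 epithelial genes were higher (CLDN4 at 0.53 and KRT7 at 0.43), as was 1 of the 2 leukocyte genes that passed the filter, ITGAM at 2.02 with at most 62 counts, and 1 of 5 stromal and endothelial genes, ACTA2 at 1.51.

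**Figure D4:**
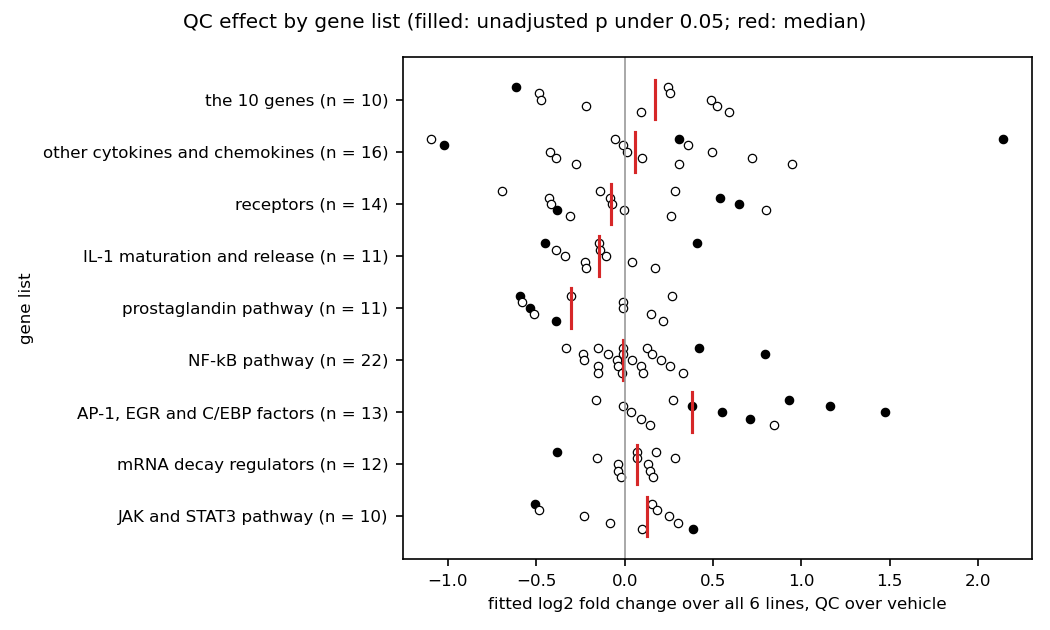
Fitted log2 fold change of QC over vehicle across all 6 lines (x axis) for the genes of each list that passed the filter (y axis, with their number), filled where the unadjusted p was under 0.05, with the list's median in red. AP-1, EGR and C/EBP factors have 6 of 13 filled points, all above 0, and the prostaglandin pathway has 3 of 11, all below 0.

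Genes with a close level pattern over the 12 libraries were found by Pearson correlation of log2 CPM, as a description in which libraries of a line share their origin. For CXCL1 they were PPP2R3A (0.98) and ANPEP (0.98), for CXCL2 CNST (0.92) and GORAB (0.91), for CXCL3 CST7 (0.93) and MAML3 (0.93), and for CXCL8 RBPJL (0.92). IL6 was closest to EBI3 (0.95) and RBPJL (0.94), CCL20 to MBLAC1 (0.91) and a gene without a name of its own (0.91), and LIF to ATP13A3-DT (0.92) and SLC34A3 (0.87). IL1A was closest to MYD88 (0.97) and LGALS8 (0.97), IL1B to SETD7 (0.99) and NT5DC2 (0.98), and PTGS2 to PPP5C (0.97) and GLA (0.97). Within the 10 genes the closest pairs after CXCL2 and CXCL3 were CXCL8 with IL6 (0.93) and IL1A with IL1B (0.89).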

How the data were processed

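Read counts per gene were deposited by the authors without normalization, 1 column for each of 12 libraries from TruSeq libraries of poly(A) RNA. The submitters' processing notes name STAR 2.7.3a, HTSeq 0.6.1p1 and GRCh38.p13, whereas the study's methods name TopHat and hg19; which of these made the table, and whether strand was used, is not given in the sources used here. Symbols were paired by Ensembl ID without its version, for 58620 of 60669 IDs, and exon lengths come from GENCODE on GRCh37. IDs without a symbol hold 0.132% of counts. No column was left unmapped, and no pair of libraries was identical.

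Genes were kept by filterByExpr over the 4 groups (minimum count 10, minimum total 15), which left 18720. Libraries were scaled by TMM and fitted with edgeR 4.0.16 (quasi-likelihood F-test, two-sided, Benjamini-Hochberg adjustment over all genes) in R 4.3.3. QC contrasts used all 12 libraries with a term for each cell line. They had no term for a QC response shared within a family, so partner lines counted as separate replicates. Vehicle contrasts used the 6 vehicle libraries with family and resistance terms. The pairing comes from the shared line, and the deviations of a line's pair of libraries from their group means had correlations of 0.893 to 0.929. Single-line log2 changes used a prior count of 2, ratios carry exact 95% intervals from the binomial split of counts, and a floor of 3 counts stands in for 0; no fold is given where both libraries held 3 counts or fewer. A library of about 22289428 counts (the median) gives few counts for CCL20, IL6 and PTGS2 in most lines.

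The members and the lists, written from general knowledge, were chosen with earlier results of these data known. Genes named are the 10 members, the 2 with the smallest p over all lines in each list, the 2 with the closest pattern to each member (1 of them is not reported here), and, chosen after their values were seen, the markers, receptors and ligands at or near 0. One by one, fits are given for all 10 over all lines and elsewhere for members with an unadjusted p under 0.1. Alternatives were DESeq2 1.42.0, other scalings (relative log expression, library size, RPLP0), no filter on low counts, a minimum of 10 counts in each library, no line term, each group's own 6 libraries, a prior count of 0.5, and leaving out each line or family. The fits were tested on simulated counts. Plots were drawn with matplotlib.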

Additional observations from a re-analysis of the deposited data

Results flagged for a closer look

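The log2 change of PTGS2 with QC in HeyA8-MDR was 1.80, far above the other 5 lines, whose values lay between -0.97 and 0.03. It stands on 8 counts in vehicle and 28 with QC, a ratio with a 95% interval of 1.77 to 10.1 for counting error. Dixon's test for a value set apart marks about 1 in 20 groups by chance, and it was run on the 10 genes.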

How the results depend on the processing

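No member reached an adjusted p under 0.05 for QC under any alternative except without a filter on low counts, where 1 did in sensitive lines and 2 over all lines, with 3 in the resistant against sensitive vehicle comparison and 8 between families. Numbers at an unadjusted p under 0.05 without that filter were 3 in sensitive lines, 3 in resistant lines, 2 in their difference, 5 over all lines and 8 between families. With at least 10 counts in every library 4 members were left for QC and 5 for vehicle, and numbers were 0, 0, 0 and 0 for QC, 1 unadjusted and 0 adjusted for vehicle resistance, and 1 for families at either threshold. Without the line or family term (no replicate block) 0 members passed either threshold in the 4 QC contrasts and in vehicle resistance. At an unadjusted p under 0.05, on a group's own 6 libraries 2 passed in sensitive and 1 in resistant lines, and scaled to RPLP0 2 passed over all lines.

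At the same unadjusted threshold, leaving out single lines or families gave 1 to 3 in sensitive lines, 0 to 2 in resistant lines, 0 to 2 in their difference, 0 to 3 over all lines, 2 to 4 for vehicle resistance and, as an alternative chosen after seeing the data, 1 to 4 adjusted and 3 to 7 unadjusted between families. Over all lines the sign turned for IL1B by DESeq2 (-0.12), PTGS2 scaled to RPLP0 (0.022) and CCL20 without the line term (-0.023), and CCL20 ranged from -0.27 to 0.42 and LIF from -0.0021 to 0.43 over the lines left out. In C13, scaling to RPLP0 moved the median of all genes to 0.43 and turned CXCL2 (0.041), CXCL8 (0.0054) and PTGS2 (0.17) positive. Of the member values given only as a range, 52 refits changed sign, 330 kept both direction and side of the threshold and 1 passed it newly. The cause of these changes was not tested.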
